A study of Mus musculus with 2 samples.

Results

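The Schlafen genes of the mouse lie in a cluster on chromosome 11, and their accessibility was described here in M1 cells before and after IL-6. The members were Slfn1, Slfn2, Slfn3, Slfn4, Slfn5, Slfn8 and Slfn9, found as the rows of the DNase I hypersensitivity (DHS-seq) table whose transcript name, without its trailing number, equals the gene symbol. These 7 genes, of 22605 in the table, had 19 of its 55432 rows, and the transcript with the most windows stands for each gene. M1 is a murine myeloid leukemia line that stops dividing and differentiates towards macrophages when it is given interleukin-6 (IL-6). One group was untreated M1 cells and the other was M1 cells of the same line kept in IL-6 for 4 to 5 days, both from passages 15 to 18, with 1 library each. The medium held heat-inactivated horse serum, and the source of both samples is labelled bone-marrow. In the wider study the libraries served the search for distal elements of c-myb. A single line stands for all myeloid progenitors here, and with no second library of either condition the difference between the libraries has no replicate check.

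Schlafen proteins share an N-terminal core domain with an AAA-like motif, and several members are induced by type I interferon through STAT and IRF factors. The short members hold little more than the core, the intermediate members carry a further conserved part, and the long members end in a helicase-like domain. The family takes its name from the German word for sleeping, after the growth arrest of thymocytes that express Slfn1, and members have been tied to the quiescence of lymphocytes and monocytes and to myeloid differentiation.

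The table gives the mean number of reads per 700-bp window over the coding span of each transcript, and whole reads were recovered from these means. Over all non-overlapping coding spans the untreated library had 9102320 reads and the IL-6 library 8544903 reads on 1200277 windows. One read of the IL-6 library counts as 1.03816 in the deposited table, and this scaling is kept in all levels and ratios below. Intervals are 95% exact Poisson intervals for a level and 95% Clopper-Pearson intervals for a ratio. They cover counting error only, compare the libraries and not the conditions, and treat reads as independent although the libraries carry no molecular identifiers. Strong spans had less signal in the IL-6 library. Among 19569 genes with more than 21 reads summed over both libraries, the median log2 ratio (IL-6 over untreated, with 0.5 reads added to each library) ran from 0.43 in the decile of genes with least signal to -1.40 in the decile with most. The part of this difference in the values of single genes was not tested, and the median of its decile is given for each Schlafen gene. The table cannot tell a site open in fewer cells from a site less open in each cell.

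All coordinates are on NCBIM37. In order along chromosome 11 the coding spans were those of Slfn5 (82769793 to 82775206, plus strand), Slfn9 (82794678 to 82801803, minus strand), Slfn8 (82816581 to 82831217, minus strand), Slfn2 (82878796 to 82883835, plus strand), Slfn1 (82934562 to 82935575, plus strand), Slfn4 (82998812 to 83002796, plus strand) and Slfn3 (83026176 to 83028603, plus strand). Slfn10-ps, whose symbol marks a pseudogene although it is annotated as protein coding, lies between Slfn8 and Slfn2 (82842312 to 82849494, minus strand). The stretch from Slfn5 to Slfn3 measures 258.81 kb. The windows follow coding spans with their introns, so the outermost annotated transcription start lies inside the windows for Slfn2 alone, at 82878614. For the other 6 members it lies between 2.61 kb (Slfn8) and 20.8 kb (Slfn3) outside the windows. The promoters at these outermost starts lie outside the windows. Slfn4 and Slfn8 also have a later annotated transcript start inside their windows, at 82999984 and 82830682.

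Sequence identity limits how reads can be divided among the copies. The coding sequences of Slfn8 and Slfn9, long members of 911 codons each, were identical at 92.7% of 2733 aligned bases, and those of the intermediate members Slfn3 (518 codons) and Slfn4 (603 codons) at 95.5% of 1523 aligned bases. Slfn10-ps was as close to the long members, with 93.6% identity to Slfn9 and 93.0% to Slfn8. The short members Slfn1 (338 codons) and Slfn2 (379 codons) were less alike, at 76.1%. Slfn5 (885 codons) stood further away, with 70.3% identity to Slfn8 and 71.3% to Slfn9. A pair of identical runs is shown because a read inside either cannot be assigned to a copy. The run shared by Slfn3 (chr11:83027316-83027431) and Slfn4 (chr11:83001406-83001521) has 116 bases, and that shared by Slfn8 (chr11:82816636-82816774) and Slfn9 (chr11:82794733-82794871) has 139 bases, both written on the plus strand.
Slfn3 and Slfn4: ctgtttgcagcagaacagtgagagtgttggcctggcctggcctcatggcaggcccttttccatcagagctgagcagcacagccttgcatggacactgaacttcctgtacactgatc
Slfn8 and Slfn9: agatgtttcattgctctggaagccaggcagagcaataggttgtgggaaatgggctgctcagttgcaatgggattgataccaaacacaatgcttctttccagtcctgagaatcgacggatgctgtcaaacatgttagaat

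Over the windows of each gene, the share of 32-base sequences that occur once in the genome was 98.4% in Slfn1, 97.1% in Slfn5 and 92.7% in Slfn2. It was lower in Slfn4 (80.2%), Slfn8 (78.3%), Slfn9 (73.0%) and Slfn3 (66.3%). Of the sequences of Slfn3, 18.9% were also in Slfn4 and 14.1% were repeated only outside the cluster. Of those of Slfn9, 14.7% were also in Slfn8 and 16.5% in Slfn10-ps. The sources used here do not say where a read with several equally good places was put. The levels of Slfn3, Slfn4, Slfn8 and Slfn9 are thus less certain than those of Slfn1, Slfn2 and Slfn5. These shares count positions and not reads, and they change with the sequence length. They do not measure how far a level is off.

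**Figure D1:**
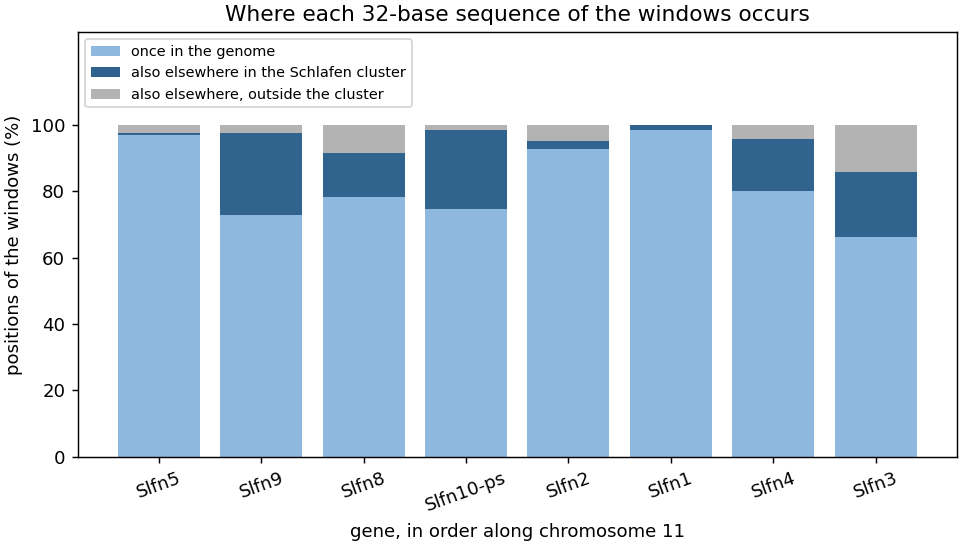
Share of 32-base sequences (y axis, % of positions in the windows of a gene) for the 7 Schlafen genes and Slfn10-ps. Sequences occur once in the genome, also elsewhere in the Schlafen cluster, or again only outside the cluster. Slfn3 has the smallest single-copy share of these genes (66.3%), and Slfn9 the largest share found again inside the cluster (24.5%).

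The promoter of Slfn2, the short member needed for quiescence of T cells and monocytes, is shown because it alone touches the measured windows (63 of its 300 bases), and those of Slfn5, Slfn8 and Slfn9 because they hold an interferon response motif. Each has 300 bases around the start given by RefSeq (GRCm38.p6), most of them before it, found once and without a mismatch on NCBIM37, and is written on the strand of its gene. Capitals mark GAAANNGAA on either strand. The positions are chr11:82878364-82878663 for Slfn2 (plus strand), chr11:82765354-82765653 for Slfn5 (plus strand), chr11:82834263-82834562 for Slfn8 (minus strand) and chr11:82805283-82805582 for Slfn9 (minus strand).
Slfn2: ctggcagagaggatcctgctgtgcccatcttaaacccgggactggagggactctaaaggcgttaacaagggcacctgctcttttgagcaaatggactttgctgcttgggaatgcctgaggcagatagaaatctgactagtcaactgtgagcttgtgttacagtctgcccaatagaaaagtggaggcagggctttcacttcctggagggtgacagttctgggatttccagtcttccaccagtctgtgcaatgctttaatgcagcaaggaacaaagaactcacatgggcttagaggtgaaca
Slfn5: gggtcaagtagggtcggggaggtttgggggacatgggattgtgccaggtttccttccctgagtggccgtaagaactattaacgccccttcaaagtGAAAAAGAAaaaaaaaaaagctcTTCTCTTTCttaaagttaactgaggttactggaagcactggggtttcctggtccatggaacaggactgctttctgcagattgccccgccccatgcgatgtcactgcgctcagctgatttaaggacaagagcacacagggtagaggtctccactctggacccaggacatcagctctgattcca
Slfn8: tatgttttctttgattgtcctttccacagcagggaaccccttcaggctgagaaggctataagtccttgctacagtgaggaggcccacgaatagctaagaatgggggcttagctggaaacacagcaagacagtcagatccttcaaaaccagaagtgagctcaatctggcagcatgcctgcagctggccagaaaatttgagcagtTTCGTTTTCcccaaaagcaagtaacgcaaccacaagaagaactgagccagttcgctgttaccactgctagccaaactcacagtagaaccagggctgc
Slfn9: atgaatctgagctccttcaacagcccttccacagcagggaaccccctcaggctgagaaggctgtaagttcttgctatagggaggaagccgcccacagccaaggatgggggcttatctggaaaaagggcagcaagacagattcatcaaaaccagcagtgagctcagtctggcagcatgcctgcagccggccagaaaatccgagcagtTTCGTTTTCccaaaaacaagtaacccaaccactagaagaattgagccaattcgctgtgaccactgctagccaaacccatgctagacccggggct

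The interferon response letters GAAANNGAA, searched on both strands, were in the promoters of 3 of the 7 members against 8.56% of all 32851 promoters of the reference table. Slfn5 had 2 matches, at 155 and 132 bases before its start, and Slfn8 and Slfn9 had the same 9 letters at 47 and 44 bases before theirs (the first of the starts that RefSeq gives for Slfn8). The Slfn8 and Slfn9 promoters were 85.6% identical over 291 aligned bases, so these matches are not independent. The Myb letters TAACNG were in the promoters of Slfn4, Slfn5 and Slfn8 (23.3% of all promoters), the PU.1 letters GAGGAA in that of Slfn9 (28.3%), and the STAT letters TTCNNNGAA in 0 of the 7 (8.30%). Matches of different motifs did not overlap in these promoters, all motifs were searched on both strands, and a match describes letters, not binding.

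Of the 7 genes, Slfn2 stood apart in untreated cells. It had 145 reads in untreated cells and 96 after IL-6 on 8 windows, or 18.1 reads per window (15.3 to 21.3) and 12.5 (10.1 to 15.2). It was the only member above the median of all genes tested, which was 8.99 in the untreated and 9.01 in the IL-6 library. The other 6 members had between 2.45 and 6.67 reads per window in untreated cells. Slfn2 held 38.5% of the reads of the family in untreated cells and 26.9% after IL-6, on 12.3% of the windows of the family. Slfn2 is also the member whose outermost start lies in the windows, and among 1957 genes that share this property and have 5 to 12 windows its level was near the middle. The median of those genes was 15.1 reads per window in untreated cells, and Slfn2 stood at percentile 55.7.

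The ratio of Slfn2, IL-6 over untreated, was 0.687 (0.525 to 0.896), a log2 ratio of -0.54. Its decile of genes by signal had a median of -0.18, and Slfn2 stood at percentile 29.6 within it. Among the genes with the outermost start inside and a like number of windows the median was -0.30 and Slfn2 stood at percentile 45.2. The reads were uneven along the gene. The SD between its 8 windows was 20.9 reads in untreated cells and 8.72 after IL-6, from which the strongest window held 43 to 69 reads before IL-6 and 18.7 to 33.2 scaled reads after it. These ranges do not overlap, so the strongest window of Slfn2 held fewer scaled reads in the IL-6 library. The ranges bound the counts themselves and leave out counting error. The table does not say which window was strongest in either library, so it need not be the same one in both.

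**Figure D2:**
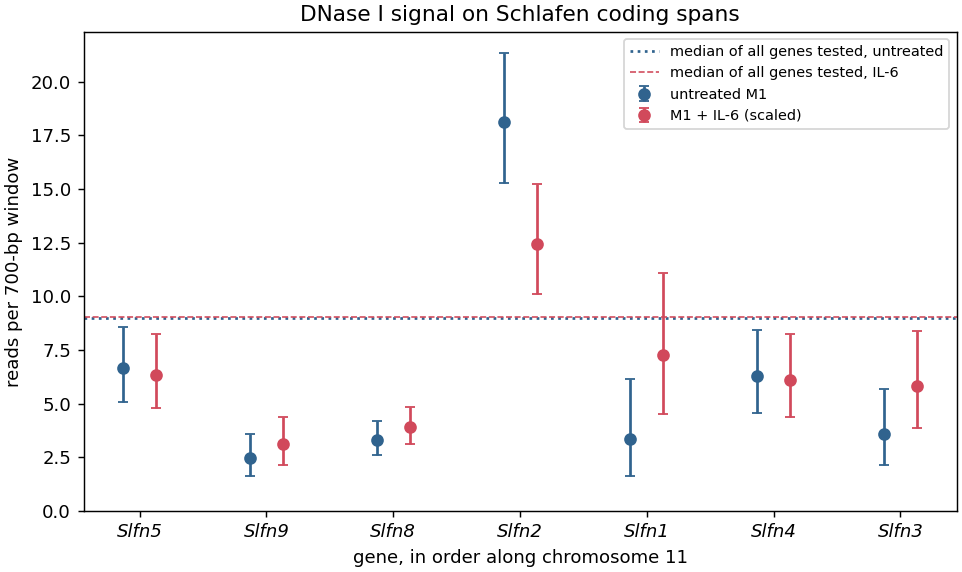
Signal of the 7 Schlafen genes (reads per 700-bp window, IL-6 scaled as in the table) in untreated and IL-6-treated M1 cells, 1 library each, with bars for the 95% exact Poisson interval and dotted and dashed lines for the median of all genes tested. Slfn2 is highest in both libraries (18.1 and 12.5), although after IL-6 its interval overlaps that of Slfn1. The intervals of the libraries overlap in Slfn1, Slfn3, Slfn4, Slfn5, Slfn8 and Slfn9.

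Slfn1, the other short member and the founder of the family, had 10 reads in untreated cells and 21 after IL-6 on 3 windows. This gave 3.33 reads per window (1.60 to 6.13) and 7.27 (4.50 to 11.1), with a ratio of 2.18 (0.983 to 5.18), or 1.09 in log2. Its 3 windows held 5, 4 and 1 reads in untreated cells, and the strongest held 8 or 9 reads after IL-6. The log2 ratio was at percentile 98.3 of all genes tested, and the median of its decile was 0.26. Its interval nevertheless included 1, and the value rests on few reads.

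The intermediate members, Slfn3 and Slfn4, had overlapping intervals in both libraries. Slfn3, studied in the differentiation of gut epithelium, had 18 and 28 reads on 5 windows, or 3.60 (2.13 to 5.69) and 5.81 (3.86 to 8.40) reads per window. Its ratio was 1.61 (0.862 to 3.10), a log2 ratio of 0.68 against 0.30 for its decile. The last window of Slfn3 held 0 reads in untreated cells, which allows up to 3 as a one-sided limit, and 1 read after IL-6. The other 4 windows held 18 and 27 reads, and after IL-6 they were even at 8, 7, 7 and 5 reads.

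Slfn4, known from myeloid cells, had 44 and 41 reads on 7 windows, or 6.29 (4.57 to 8.44) and 6.08 (4.36 to 8.25) reads per window. Its ratio of 0.967 (0.616 to 1.52) did not separate the libraries, and the median log2 ratio of its decile was 0.26. In untreated cells the reads were uneven, with 17 reads in the strongest of its windows, 9 in one of the last 2 and 0 in the other. The first 5 windows held 35 and 34 reads and the last 2 held 9 and 7. Since Slfn3 and Slfn4 share sequence, their sum is less affected by how reads were placed between them. Together they had 62 and 69 reads on 12 windows, a ratio of 1.16 (0.808 to 1.66). The sum does not cover the 14.1% of Slfn3 sequences that were repeated only outside the cluster.

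The long members were low or flat. Slfn5, an interferon-induced member found in the nucleus, had 60 and 55 reads on 9 windows, or 6.67 (5.09 to 8.58) and 6.34 (4.78 to 8.26) reads per window, with a ratio of 0.952 (0.648 to 1.40). The median log2 ratio of its decile was 0.18. Its first 6 windows held 44 reads before and 33 after IL-6, and its last 3 windows (chr11:82773601-82775700) held 16 and 22, a ratio of 1.43 (0.716 to 2.91). The sign of the log2 ratio of both Slfn4 (-0.05) and Slfn5 (-0.07) turned positive, to 0.09 and 0.07, when the libraries were scaled to equal totals over chromosome 11, so no direction is given for either.

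Slfn8 had 73 and 83 reads on 22 windows, or 3.32 (2.60 to 4.17) and 3.92 (3.12 to 4.86) reads per window, with a ratio of 1.18 (0.851 to 1.64). Slfn9 was the lowest member in both libraries, with 27 and 33 reads on 11 windows, 2.45 (1.62 to 3.57) and 3.11 (2.14 to 4.37) reads per window, and a ratio of 1.27 (0.740 to 2.19). Both lay in the decile of genes with least signal, whose median log2 ratio was 0.43, above their own values of 0.24 and 0.34. Taken with Slfn10-ps, which shares their sequence, they had 149 and 157 reads on 44 windows, a ratio of 1.09 (0.869 to 1.38).

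**Figure D3:**
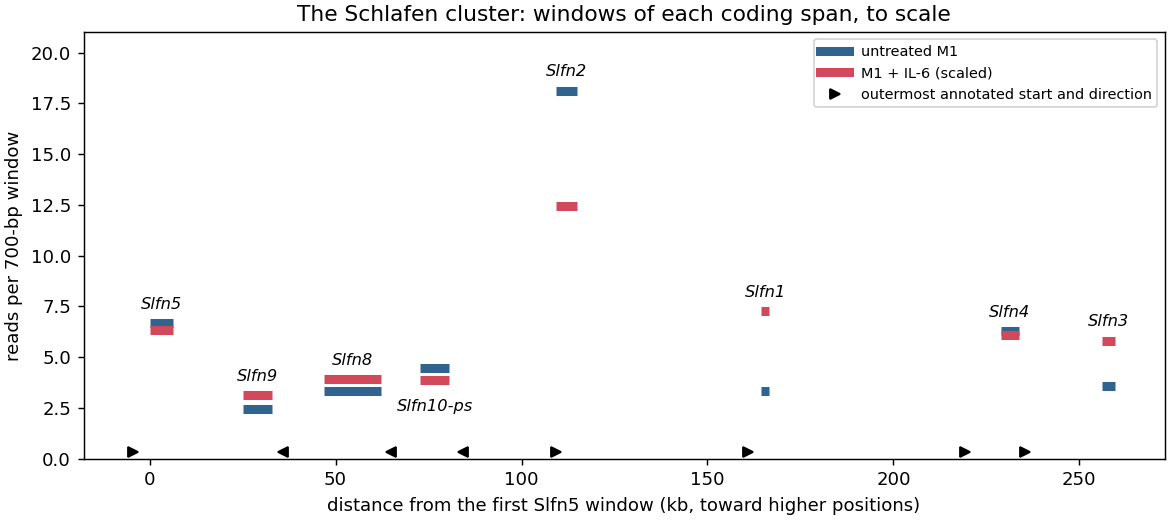
Reads per 700-bp window (y axis) in untreated and IL-6-treated M1 cells along the Schlafen cluster, by distance in kb from the first window of Slfn5. Bars span the windows of each gene and triangles mark the outermost annotated starts. Slfn2 has the highest value in both libraries, although after IL-6 its interval overlaps that of Slfn1. The other spans stay below 8 reads per window.

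In untreated cells the order was Slfn2, Slfn5, Slfn4, Slfn3, Slfn1, Slfn8 and Slfn9. The intervals of Slfn2 and Slfn5 did not overlap, a gap of 2.72-fold, and those of each later pair of neighbours did. After IL-6 Slfn1 stood second after Slfn2, ahead of Slfn5, Slfn4 and Slfn3, and the intervals of all neighbours overlapped. The strongest window of Slfn2 was above 21 reads in untreated cells, and none of the other 6 members had such a window in either library. The study's methods call sites by a read count above 21, without tying it to these windows. The bounds from mean and SD put the strongest windows of these 6 members at 20 reads or fewer in untreated cells and at 20.8 scaled reads or fewer after IL-6.

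Few members passed a line in either direction. At least 1.5-fold lower after IL-6 were 0 of the 7 members, against 22.2% of the genes tested. At least 1.5-fold higher were 2 members, Slfn1 and Slfn3, against 11.8%. These calls were not firm, since without scaling 1 member, Slfn2, was lower by that much, and with 5 reads added to each library only 1, Slfn1, was higher. The shares also differ with signal. The 6 members other than Slfn2 lay in the 4 deciles with least signal. In these, 3.01% to 9.20% of the genes were lower by 1.5-fold or more and 13.1% to 29.8% higher. In the decile of Slfn2 the shares were 27.4% and 6.03%. The interval of the ratio lay below 1 in 1 member, Slfn2, against 32.5%, and above 1 in 0 members, against 27.7%. The median log2 ratio of the members was 0.24 and that of all genes tested 0.05. Summed over 65 windows the family had 377 reads in untreated cells and 357 after IL-6, a ratio of 0.983 (0.848 to 1.14). Without Slfn2 the sum was 232 and 261 reads on 57 windows, a ratio of 1.17 (0.975 to 1.40).

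**Figure D4:**
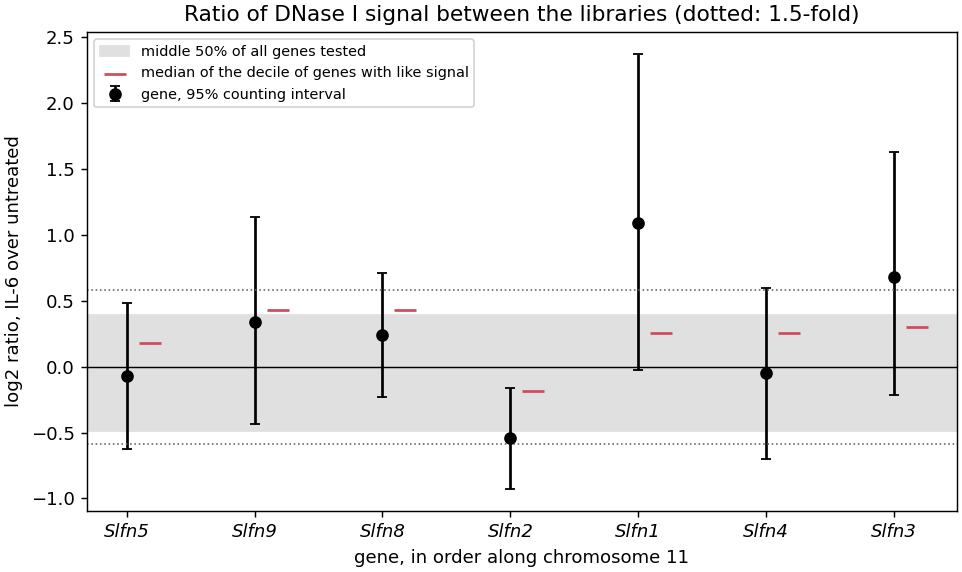
Log2 ratio of IL-6 over untreated M1 cells (y axis, 0.5 reads added to each library) for the 7 Schlafen genes, with bars for the 95% Clopper-Pearson interval, a red dash for the median of the decile of genes with like signal, grey for the middle 50% of all genes and dotted lines at 1.5-fold. The interval lies below 0 for Slfn2 (-0.54) and includes 0 for the other 6 members, also for Slfn1 (1.09).

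The low level of the 6 members was compared with other spans whose outermost start lies outside the windows. Among 3997 such genes with 3 to 22 windows, the median in untreated cells was 10.0 reads per window. Slfn9 stood at percentile 4.42, Slfn8 at 8.19, Slfn1 at 8.41, Slfn3 at 10.1, Slfn4 at 27.3 and Slfn5 at 29.2. The 6 members thus lay in the lower part of these genes, and a part of shared sequence in these levels was not tested. Their log2 ratios were spread from percentile 41.4 (Slfn5) to 98.1 (Slfn1).

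The relatives outside the list were in the same range or above it. Slfn10-ps had 49 and 41 reads on 11 windows, with a ratio of 0.869 (0.559 to 1.34), or -0.20 in log2 against 0.30 for its decile. Slfnl1, a Schlafen-like gene on chromosome 4 whose windows are wholly single copy, had 98 and 123 reads on 6 windows, or 16.3 and 21.3 reads per window, and its ratio was 1.30 (0.991 to 1.72). Its log2 ratio of 0.38 stood at percentile 91.5 of its decile, whose median was -0.48. No gene was listed under the name Slfn14, so it has no values here.

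The neighbours of the cluster had more signal than most of its members. Within 500 kb of its ends 24 genes were tested, with a median of 10.95 reads per window in untreated cells beside 3.60 for the 7 members, and 9 of them were lower by 1.5-fold or more after IL-6 while 2 were higher, against 22.2% and 11.8% of all genes tested. Their median log2 ratio was -0.15, and 16 of the 24 had their outermost start in their windows, as did 1 of the 7 members. Beside Slfn5, the myosin chaperone gene Unc45b had 347 and 398 reads, a ratio of 1.19 (1.03 to 1.38). The lowest ratio among these neighbours was that of Zfp830 (253 and 54 reads, 0.222), and Gas2l2 (0.324), 1700020L24Rik (0.391), Cct6b (0.622), Rad51l3 (0.635) and Nle1 (0.662) were lower as well. Cct6b and Zfp830 share the window from 82577601 to 82578300, so its reads count for both and their calls are not independent. The windows of Gm17307 likewise lie within those of Ap2b1. Zfp830, Gas2l2, Ccl3 and 1700020L24Rik lay in the decile with most signal, of which 84.6% of the genes were lower by 1.5-fold or more. Cct6b (-0.68 in log2), Rad51l3 (-0.65), Nle1 (-0.59) and Ccl9 (-1.37) lay in other deciles. Each was below the median of its decile (0.14, -0.02, -0.48 and -0.48). Among the chemokine genes Ccl3 had 153 and 45 reads and Ccl9 167 and 62, with ratios of 0.305 and 0.385, whereas Ccl5 had 76 and 119 reads and a ratio of 1.63. The predicted gene Gm11435 was the other higher one, with 83 and 142 reads and a ratio of 1.78.

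**Figure D5:**
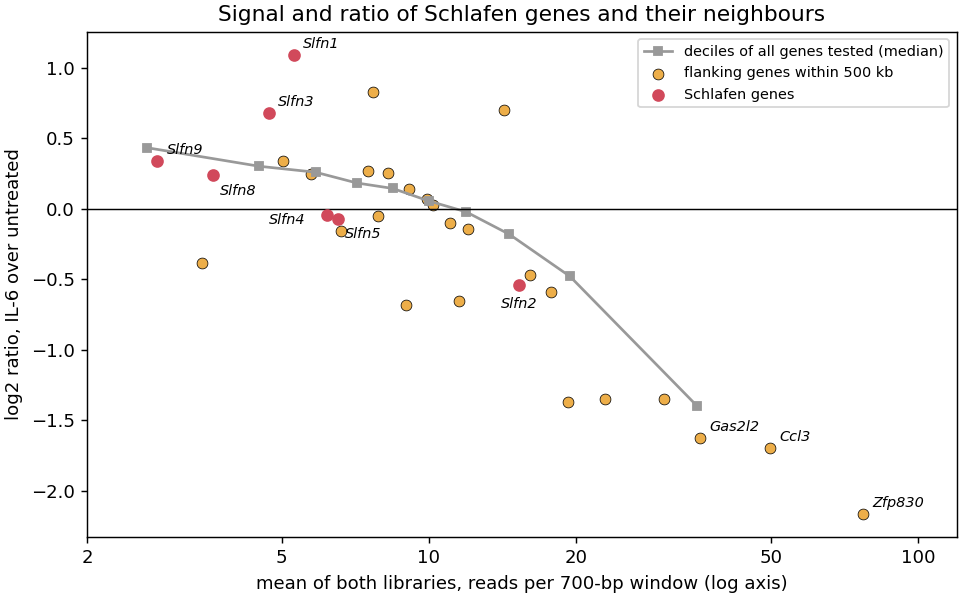
Log2 ratio of IL-6 over untreated M1 cells (y axis) against the mean signal of both libraries (x axis, reads per 700-bp window, log axis) for the 7 Schlafen genes, the 24 flanking genes within 500 kb and the medians of the deciles of all genes tested. Slfn1 and Slfn3 lie above the median of their deciles and the other 5 members below it, and flanking genes with strong signal such as Zfp830 lie lowest.

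Genes of the type I interferon pathway, which induces several Schlafen genes, had more signal in untreated cells than the members other than Slfn2. The lowest of them, Stat2 (5.72 to 7.89), had an interval that overlapped that of Slfn5 (5.09 to 8.58). After IL-6 Stat2, at 5.55 reads per window, was below Slfn1, Slfn5, Slfn4 and Slfn3. All 10 on the list were tested, at 6.74 to 50 reads per window in untreated cells, with 3 lower by 1.5-fold or more, 0 higher and a median log2 ratio of -0.48, against 22.2% and 11.8% of all genes tested. Those that were lower were the transcription factor genes Irf9 (400 and 160 reads, ratio 0.415), Irf3 (113 and 59, 0.542) and Irf1 (246 and 133, 0.561). The log2 ratio of Irf9 (-1.27) was above the median of its decile (-1.40), and those of Irf3 (-0.88) and Irf1 (-0.83) were below theirs (-0.18 and -0.48). Irf9 encodes the DNA-binding subunit of the factor that binds interferon response elements. Stat2, which encodes another subunit of that factor, had a ratio of 0.824 (0.645 to 1.05). The receptor genes Ifnar1 and Ifnar2 had ratios of 0.683 and 0.889, and the kinase genes Jak1 and Tyk2 1.09 and 0.748. Irf7 had 131 and 84 reads and a ratio of 0.666, which stayed short of 1.5-fold once 0.5 reads were added to each library.

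The identity of the cells was checked on marker genes, in reads per window of untreated cells. Macrophage markers (6 of 6 listed) ran from 2.75 to 129 and myeloid progenitor markers (6 of 7 listed, Spi1 not under that name) from 4.10 to 46.5. T cell markers ran from 6.17 to 10.5, B cell markers from 6.67 to 9.92 and non-blood markers from 3.09 to 9.19, and the 6 Schlafen genes other than Slfn2 were at 6.67 or lower. Erythroid markers ran from 4.83 to 51.6. After IL-6, 3 macrophage, 2 progenitor and 2 erythroid markers were lower by 1.5-fold or more, and 1 T cell (Cd3e) and 1 non-blood marker (Myod1) were higher, against 22.2% and 11.8% of all genes tested. Of the lower markers Cd68, Cd14, Cebpa and Klf1 lay in the decile with most signal. Myb (-0.95 in log2), Csf1r (-0.82) and Gata1 (-0.62) lay in other deciles, below the medians there (0.05, -0.48 and 0.30). Gata1 rests on 29 and 18 reads, and the interval of its ratio included 1. The ranges of all these lists overlapped, and each of the markers had reads in both libraries.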

How the data were processed

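DHS-seq signal was measured in untreated and in IL-6-treated M1 cells, 1 library each. Nuclei were digested by the authors with DNase I and small fragments were sequenced. Alignment was with BWA to NCBIM37, and quantification was done in Seqmonk. Each deposited signal value is a mean or an SD of reads over the 700-bp windows touched by each coding span, scaled in the IL-6 column. Columns of per-sample values that no sample matched numbered 0, and the column of averages without values was not used.

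Means were turned into reads by the number of windows and the value of 1 read (1 and 1.03816), and 100% of the rows gave whole numbers within 0.05 reads. The transcript with the most windows stood for a gene. Genes with more than 21 reads over both libraries were compared, 0.5 reads were added for log2 ratios, and a change was at least 1.5-fold. With 1 library per condition no test was run. Single-copy share was counted over 32-base sequences of NCBIM37, both strands. Amino acid sequences were not used here, so coding sequences of GENCODE M1 were aligned in their place (global alignment), and pairs are given where at least most of the shorter sequence aligned. The planned reading by proteins was changed in this point. Bounds of the strongest window are the lowest and highest values that the mean and SD allow for whole reads. Scripts were tested on simulated data.

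Genes named are the members, other Slfn genes, neighbours within 500 kb beside the cluster or past 1.5-fold, the interferon list, and the 3 genes on chromosome 11 nearest in signal; markers are given as ranges. Some genes under this rule are not reported here. Members and lists were chosen with earlier results of these data known. Alternatives covered scaling, added reads, transcript, fold, filter, sequence length and flank. Python 3.11.15, numpy 2.4.6, pandas 2.3.3, scipy 1.17.1, Biopython 1.88 and matplotlib 3.10.9 were used.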

Additional observations from a re-analysis of the deposited data

How the results depend on the processing

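Of 92 values computed for 19 results, 74 stayed close to those reported and 18 moved. Without scaling, 1 Schlafen gene (Slfn2) was at least 1.5-fold lower instead of 0. Only 1 gene (Slfn1) was at least 1.5-fold higher with 5 reads added to each library, and again only 1 at a fold of at least 2. Scaling by the median of ratios over single windows, chosen after seeing the data, multiplied the IL-6 reads by 3.73 and moved the median of all genes by 1.85 on the log2 scale. Under it 7 Schlafen genes were higher, with a median log2 ratio of 2.08, and the log2 ratios of Slfn2 (1.31), Slfn4 (1.80) and Slfn5 (1.78) changed sign. Equal totals over chromosome 11 moved all log2 ratios by 0.14. With 50-base sequences the single-copy share rose to 98.1% in Slfn2, 79.4% in Slfn3, 89.4% in Slfn4, 90.7% in Slfn8 and 86.1% in Slfn9. Within 1 Mb of the cluster 5 genes instead of 2 were higher and 9 were lower. With the transcript of fewest windows Slfn4 fell under the read minimum. Counting error over few reads limits most members. No paired analysis was possible because with a single library of either condition there was nothing to pair.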

Other observations

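Outside the family, the 3 genes on chromosome 11 whose signal in both libraries was nearest to the medians of the Schlafen genes (3.60 and 6.08 reads per window) were Gm11709, Apoh and Myh2, of 1563 genes compared. Likeness was the sum of the absolute differences of log2 signal over the 2 libraries. The medians were taken in each library apart, and 3.60 is the value of Slfn3 and 6.08 that of Slfn4. The pair is thus no measure of the change in the family, whose median log2 ratio was 0.24 and whose summed ratio was 0.983. Gm11709 had 3.56 and 5.998 reads per window, a distance of 0.0376. Apoh, which encodes a plasma glycoprotein made in liver, had 3.50 and 5.97, and Myh2, a skeletal muscle myosin heavy chain gene, had 3.69 and 5.87.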
